A study of Mus musculus with 21 samples.

Results

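RNA levels of 40 mouse genes of DNA repair and of the DNA damage checkpoint were followed in the uterus at 5 weeks, at 8 weeks and in old age. The members were chosen by gene symbol, with earlier results of these data known, and 37 of the 40 were found among the 12791 genes listed. Rad54b, Fanci and Neil3 were not among them and were not analysed here. By role, the 37 genes comprised 10 of homologous recombination, 1 of end joining by polymerase theta, 3 of the complex that senses broken ends, 5 of the Fanconi anaemia pathway, 2 of mismatch repair, 4 of non-homologous end joining, 4 of base excision repair, 3 of nucleotide excision repair and 5 of the checkpoint.

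The whole uteri were from inbred C57BL/6J mice of wild type genotype, with 7 libraries at 5 weeks, 7 at 8 weeks and 6 aged. All mice had been injected 48 hours before dissection with pregnant mare serum gonadotropin, a hormone that stimulates the ovary, at a dose of 5 or 7.5 units, and which animal got which dose is not stated in the labels. Each age holds an earlier set of 2 libraries, with aged mice of 60 to 75 weeks, and a later set of 5 libraries (4 in the aged group), with aged mice of 79 weeks. The sets also differ in sequencing depth, so that within the aged group age and set cannot be told apart. Levels are in CPM, that is, read counts brought to a total of 1e+06 in each library, and differences are on the scale of log2(CPM + 1).

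Cells repair DNA by several routes. Homologous recombination copies the lost information from the sister chromatid and therefore works after replication, whereas non-homologous end joining seals broken ends at any time. The Fanconi anaemia pathway unhooks crosslinked strands, mismatch repair corrects replication errors, and the excision pathways remove damaged bases or bulky lesions. Checkpoint kinases halt the cell cycle until repair is done. Many recombination and checkpoint genes are known to be transcribed mainly in cycling cells, and the endometrium is a tissue whose cells divide in waves under ovarian hormones.

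Some features of the libraries bear on every result. Read counts were worked out from the steps between CPM values, over the listed genes only. By that count the 6 earlier libraries held 12204573 to 14448283 reads each, and the 14 later ones 19100690 to 30689439. In 15 of 20 columns the header names another sample than the one the file belongs to, in 2 cases of another age group. Columns were taken by header, and aged replicate 3, which then has no column, was not analysed here. The set term of the fit was called for 23 members as lower in the later set, against 38.3% of all genes, and for 2 members, Xpa and Ercc1, as higher, against 20.5%. Every listed gene had at least 10 reads in each library, so a gene near silence in any library is not among those tested. The 7 uterine marker genes fixed for the check, among them the receptors Esr1 and Pgr, were all listed, with a summed level of 573 to 1157 CPM at 5 weeks, 673 to 1159 CPM at 8 weeks and 762 to 1166 CPM in aged uteri.

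Aged uteri had less RNA of 15 of the 37 genes and more RNA of 2 than those of 8-week-old mice (limma with the set as a covariate, Benjamini-Hochberg over all genes, adjusted p under 0.05). Over all genes, 8.53% were called lower and 8.64% higher in that comparison. Of the 15 that fell, 7 act in homologous recombination, 3 in the Fanconi anaemia pathway and 2 in the checkpoint that answers to stalled replication, and the others are Polq, Mre11a and Lig4. The 2 that rose, Xpc and Xpa, act in nucleotide excision repair. Against 5 weeks, 13 genes were called lower and 2 higher, against 9.41% and 12.7% of all genes. These 13 and 2 were all called in the same direction against 8 weeks, and both comparisons share the 6 aged libraries. The median log2 fold change of the 37 genes was -0.47 against 8 weeks and -0.28 against 5 weeks, beside 0.05 and 0.09 for all genes. In whole tissue, fewer cells of a type and less RNA per cell cannot be told apart.

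**Figure D1:**
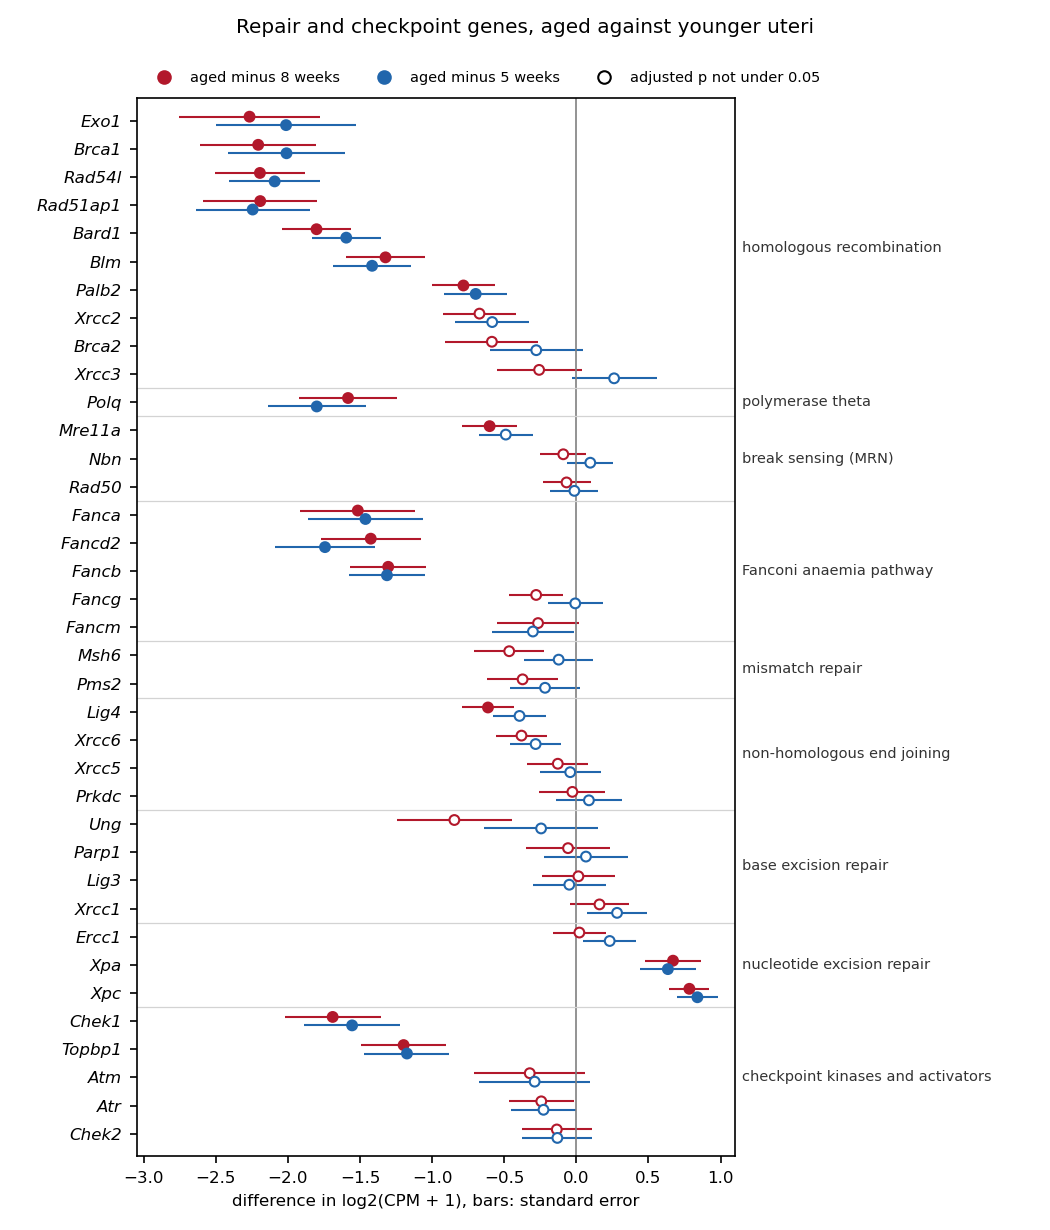
Fold changes of the 37 repair and checkpoint genes by role, as differences in log2(CPM + 1) with standard errors, aged minus 8 weeks in red and aged minus 5 weeks in blue. Filled points have an adjusted p under 0.05; they lie left of 0 for recombination, Fanconi and replication checkpoint genes and right of 0 for Xpa and Xpc.

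Between 8 and 5 weeks none of the 37 genes was called, nor was any of the 12791 genes tested, while 139 genes, none of them a member, had an unadjusted p under 0.05 in limma. The log2 fold changes of members, 8 weeks over 5 weeks, lay between -0.32 for Fancd2 and 0.60 for Ung. Per kilobase of exon, mean levels spanned a wide range at every age. They ran from 0.60 CPM per kb for Brca2 to 18.6 for Xrcc5 at 5 weeks, from 0.82 for Brca2 to 19.9 for Xrcc5 at 8 weeks, and from 0.23 for Polq to 18.1 for Xrcc5 in aged uteri.

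Homologous recombination held the largest group of lower genes, 7 of 10 in each comparison with aged uteri. Brca1, a ubiquitin ligase subunit that directs broken ends into recombination, lies on chromosome 11 (GRCm38 chr11:101488764-101551955, minus strand). Its lowest, median and highest levels were 7.94, 16.3 and 28.0 CPM at 5 weeks, 4.11, 21.0 and 57.4 CPM at 8 weeks, and 1.49, 2.43 and 20.5 CPM in aged uteri. In 5 of 6 aged libraries the level was under that of all younger ones, and in aged replicate 2 it lay within the younger range. The log2 fold change was -2.21 ± 0.40 (SE) against 8 weeks, which is 4.61-fold lower on that scale (adjusted p = 0.00129), and -2.01 ± 0.40 against 5 weeks (adjusted p = 0.00184).

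Exo1, a nuclease that trims a strand of a broken end (chr1:175880581-175913489, plus strand), had lowest, median and highest levels of 5.30, 13.0 and 20.7 CPM at 5 weeks, 1.49, 15.9 and 52.8 CPM at 8 weeks, and 0.86, 2.13 and 13.0 CPM in aged uteri. Against 5 weeks, 5 aged libraries lay below the whole younger group, but against 8 weeks only 2 did, since 8w replicate 4 stood at 1.49 CPM. Its log2 fold change was -2.27 ± 0.49 against 8 weeks (adjusted p = 0.00404) and -2.01 ± 0.49 against 5 weeks (adjusted p = 0.00662). In the earlier set alone Exo1 was called against 8 weeks (-3.27) but not against 5 weeks (-1.93, limma, adjusted p = 0.136). In the later set alone it was called against 5 weeks (-2.02) but not against 8 weeks (-1.83, limma, adjusted p = 0.104). Aged replicate 1, at 0.86 CPM, lay near the limit of 10 reads for a listed gene. Rad54l, a motor protein of strand invasion (chr4:116094264-116123690, minus strand), ran at 7.49, 17.9 and 29.0 CPM at 5 weeks, 4.51, 16.9 and 51.7 CPM at 8 weeks, and 2.03, 2.85 and 8.76 CPM in aged uteri. Again 5 of 6 aged libraries were under the whole younger range and aged replicate 2 was the highest of the aged. Rad54l differed by -2.19 ± 0.31 against 8 weeks (adjusted p = 0.00021) and by -2.09 ± 0.31 against 5 weeks (adjusted p = 0.000142). It shares 15.4% of its exon length with Lrrc41, and the labels do not say whether reads were counted by strand.

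No member was lower without overlap against 8 weeks, where 1.02% of all genes were. The other 4 lower genes of this route covered a range of sizes. Rad51ap1, which helps strands pair, differed by -2.19 against 8 weeks and by -2.24 against 5 weeks. Bard1, the partner of Brca1 in the ubiquitin ligase, differed by -1.80 ± 0.24 and -1.60 ± 0.24, with the lowest adjusted p of the 37 genes against 8 weeks (0.000166). Blm, a helicase that dissolves crossed strands, differed by -1.32 and -1.42, and Palb2, the bridge between Brca1 and Brca2, by -0.78 and -0.70. The call of Palb2 was lost without aged replicate 1, without 8w replicate 1 and, against 5 weeks, also without aged replicate 2 and without any of 5w replicates 2, 4 and 7. Brca2, a mediator of strand exchange, and Xrcc2 and Xrcc3, which act beside it, were not called: their log2 fold changes were -0.59, -0.67 and -0.26 against 8 weeks and -0.28, -0.58 and 0.26 against 5 weeks. Xrcc2 was called lower in both comparisons after quantile normalization or median centring, as were Lig4 and Mre11a against 5 weeks.

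Polq encodes DNA polymerase theta, which joins ends through short matching stretches and is known as a back-up where recombination fails (chr16:37011786-37095417, plus strand). Its levels were low at every age, with a lowest, median and highest of 2.91, 8.87 and 22.6 CPM at 5 weeks, 2.28, 6.77 and 22.1 CPM at 8 weeks, and 0.81, 1.39 and 6.03 CPM in aged uteri. Against 8 weeks 4 aged libraries, and against 5 weeks 5, lay below the whole younger group. The log2 fold change was -1.58 ± 0.34 against 8 weeks (adjusted p = 0.00388) and -1.80 ± 0.34 against 5 weeks (adjusted p = 0.00112).

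**Figure D2:**
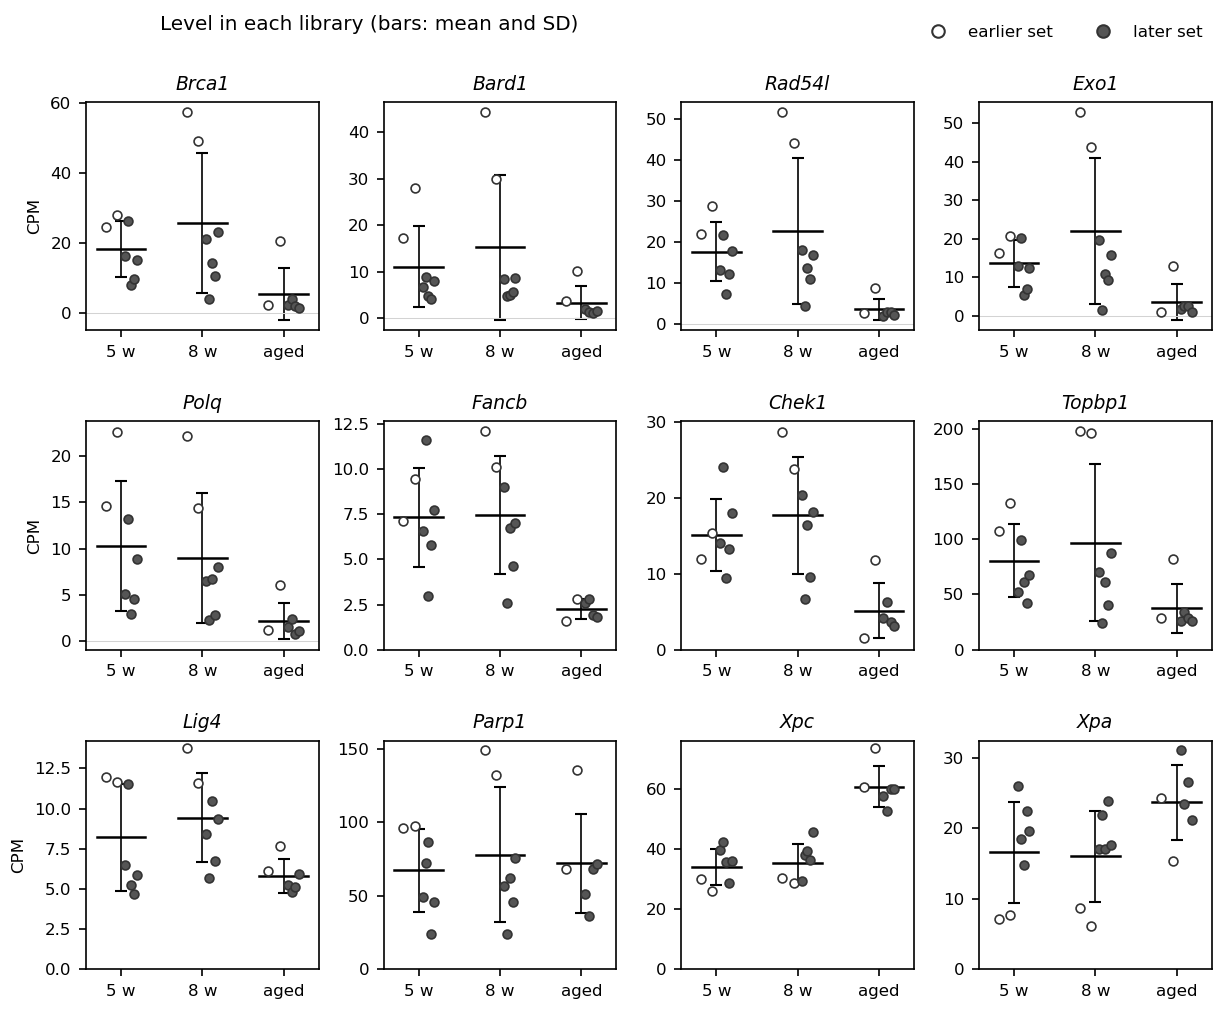
CPM of 12 members in each library at 5 weeks, 8 weeks and in aged uteri; open points are the earlier set, filled points the later set, and bars the mean and SD. Xpc is the panel in which all 6 aged libraries lie above all younger ones, while in Brca1, Exo1 and Topbp1 a high aged point of the earlier set is aged replicate 2.

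The complex of Mre11a, Rad50 and Nbn holds broken ends and wakes the Atm kinase. Mre11a, its nuclease (chr9:14784654-14837123, plus strand), was the only subunit called, at -0.60 ± 0.19 against 8 weeks (adjusted p = 0.0339). Its levels were 20.6, 21.5 and 34.7 CPM (lowest, median, highest) in aged uteri, against 17.7, 35.9 and 64.1 CPM at 8 weeks, and these ranges overlap. Against 5 weeks the difference of -0.49 ± 0.19 was not called (adjusted p = 0.067), and leaving out any of 7 libraries (aged replicates 1 and 4, 8w replicates 1, 2, 3, 5 and 7) ended the call against 8 weeks. Rad50 and Nbn differed by -0.07 and -0.09 against 8 weeks and by -0.01 and 0.10 against 5 weeks, and were not called.

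Of the 5 genes of the Fanconi anaemia pathway, 3 fell in both comparisons. Fanca, a subunit of the core ubiquitin ligase complex (chr8:123268300-123318576, minus strand), had lowest, median and highest levels of 3.90, 12.8 and 36.4 CPM at 5 weeks, 2.08, 11.03 and 50.7 CPM at 8 weeks, and 2.18, 3.36 and 11.3 CPM in aged uteri. The groups overlap, and the difference was -1.52 ± 0.40 against 8 weeks (adjusted p = 0.0139) and -1.46 ± 0.40 against 5 weeks (adjusted p = 0.0133). Fanca shares 10.5% of its exon length with Zfp276. Fancd2, which the core complex marks with ubiquitin at a crosslink (chr6:113531682-113597017, plus strand), ran at 3.59, 13.2 and 17.0 CPM at 5 weeks, 1.93, 8.25 and 24.3 CPM at 8 weeks, and 1.08, 2.02 and 8.04 CPM in aged uteri. Against 8 weeks 3, and against 5 weeks 5, of the 6 aged libraries lay below the younger group, with differences of -1.43 ± 0.35 (adjusted p = 0.00896) and -1.74 ± 0.35 (adjusted p = 0.00174).

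Fancb, an X-linked core subunit (chrX:164980592-164997272, plus strand), had the narrowest aged range of the 3, with 2.95, 7.13 and 11.6 CPM at 5 weeks, 2.58, 7.04 and 12.1 CPM at 8 weeks, and 1.56, 2.27 and 2.81 CPM in aged uteri. All 6 aged libraries lay below all 7 libraries of 5 weeks, the only member of which this was so among the lower genes; over all genes, 1.43% were lower without overlap. Against 8 weeks 3 of 6 lay below, and the differences were -1.30 ± 0.26 (adjusted p = 0.00259) and, against 5 weeks, -1.31 ± 0.26 (adjusted p = 0.00186). Fancg, another core subunit, and Fancm, which anchors the complex to DNA, were not called, with -0.28 and -0.27 against 8 weeks and -0.01 and -0.30 against 5 weeks.

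Neither mismatch repair gene was called. Pms2, which acts after a mismatch is found, had 6.73, 9.21 and 18.6 CPM (lowest, median, highest) in aged uteri, against 6.00, 13.5 and 21.0 CPM at 8 weeks, a difference of -0.37 ± 0.25 (adjusted p = 0.307). Msh6, which recognises mismatched bases, differed by -0.47 against 8 weeks and by -0.12 against 5 weeks. The groups overlap in both genes.

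Non-homologous end joining gave 1 call among 4 genes. Lig4, the ligase of this route (chr8:9969049-9977686, minus strand), had 4.78, 5.58 and 7.64 CPM (lowest, median, highest) in aged uteri, against 5.70, 9.37 and 13.8 CPM at 8 weeks, and 3 of 6 aged libraries lay below the 8-week group. The difference was -0.61 ± 0.18 (adjusted p = 0.0265). It was not called against 5 weeks (-0.39 ± 0.18, adjusted p = 0.124), nor against 8 weeks without aged replicate 1, aged replicate 2 or 8w replicates 1, 3 or 5. The Ku genes Xrcc5 and Xrcc6 and the kinase gene Prkdc, which together cap a broken end, were not called, with differences of -0.13, -0.38 and -0.03 against 8 weeks and of -0.04, -0.28 and 0.09 against 5 weeks.

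None of the 4 base excision genes was called in either comparison. Lig3, which seals nicks, had the smallest difference of them against 8 weeks, 0.01 ± 0.25 (adjusted p = 0.977), with 30.6, 47.8 and 105 CPM (lowest, median, highest) in aged uteri, against 22.5, 57.1 and 93.5 CPM at 8 weeks. It shares 25.1% of its exon length with Rffl. Parp1, a sensor of nicked DNA, and Xrcc1, the scaffold it recruits, differed by -0.06 and 0.16 against 8 weeks and by 0.07 and 0.28 against 5 weeks. Ung, which cuts out uracil, differed by -0.85 ± 0.40 against 8 weeks (limma, adjusted p = 0.147). Its 8-week levels were 48.9 and 76.9 CPM in the earlier set and at most 21.0 CPM in the later set. In the earlier set alone Ung was called lower against 8 weeks, at -1.67 (limma, adjusted p = 0.0161).

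Nucleotide excision repair held the 2 genes that rose. Xpc, which finds distorted DNA and starts this route (chr6:91489305-91515888, minus strand), had lowest, median and highest levels of 25.9, 35.6 and 42.1 CPM at 5 weeks, 28.7, 36.4 and 45.7 CPM at 8 weeks, and 52.6, 60.0 and 73.5 CPM in aged uteri. All 6 aged libraries lay above all 14 younger ones, in both sets, while 0.946% of all genes were higher without overlap against 8 weeks and 1.65% against 5 weeks. The difference was 0.78 ± 0.14 against 8 weeks (adjusted p = 0.00106) and 0.84 ± 0.14 against 5 weeks (adjusted p = 0.000391), that is, 1.72-fold and 1.79-fold higher.

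Xpa, which verifies the lesion after Xpc (chr4:46155347-46196311, minus strand), had 7.06, 18.5 and 25.9 CPM at 5 weeks, 6.12, 17.0 and 23.9 CPM at 8 weeks, and 15.3, 23.9 and 31.1 CPM in aged uteri. In the earlier set the aged libraries stood at 24.3 and 15.3 CPM, against 8.60 and 6.12 CPM at 8 weeks, whereas in the later set the ranges overlapped, with 21.2 to 31.1 CPM in aged uteri against 17.0 to 23.9 CPM at 8 weeks. Its differences of 0.67 ± 0.19 against 8 weeks (adjusted p = 0.023) and 0.63 ± 0.19 against 5 weeks (adjusted p = 0.0245) were not called after quantile normalization or median centring, or without aged replicate 1. The call was also lost without 8w replicate 2 in the comparison with 8 weeks, and without aged replicate 2 or 5w replicates 1 or 2 in that with 5 weeks. Ercc1, part of the nuclease that cuts beside the lesion, differed by 0.02 against 8 weeks and by 0.23 against 5 weeks and was not called.

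Among the 5 checkpoint genes, the 2 lower ones act downstream of Atr or upon it. Chek1, the kinase that carries the Atr signal (chr9:36708482-36727065, minus strand), had lowest, median and highest levels of 9.42, 14.1 and 24.1 CPM at 5 weeks, 6.74, 18.2 and 28.8 CPM at 8 weeks, and 1.56, 3.91 and 11.8 CPM in aged uteri. In 5 aged libraries it was under the whole younger range, and aged replicate 2 was the exception. The difference was -1.69 ± 0.33 against 8 weeks (adjusted p = 0.0022) and -1.56 ± 0.33 against 5 weeks (adjusted p = 0.0029).

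Topbp1, the activator of Atr (chr9:103305215-103350428, plus strand), ran at 42.6, 67.3 and 133 CPM at 5 weeks, 24.4, 70.4 and 198 CPM at 8 weeks, and 26.0, 28.5 and 82.2 CPM in aged uteri. No aged library lay below the whole 8-week group, but 5 of 6 lay below the 5-week group. It differed by -1.20 ± 0.29 against 8 weeks (adjusted p = 0.00946) and by -1.17 ± 0.29 against 5 weeks (adjusted p = 0.00821). The kinases Atm and Atr and the Atm effector Chek2 were not called, with -0.32, -0.24 and -0.14 against 8 weeks and -0.29, -0.23 and -0.13 against 5 weeks.

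**Figure D3:**
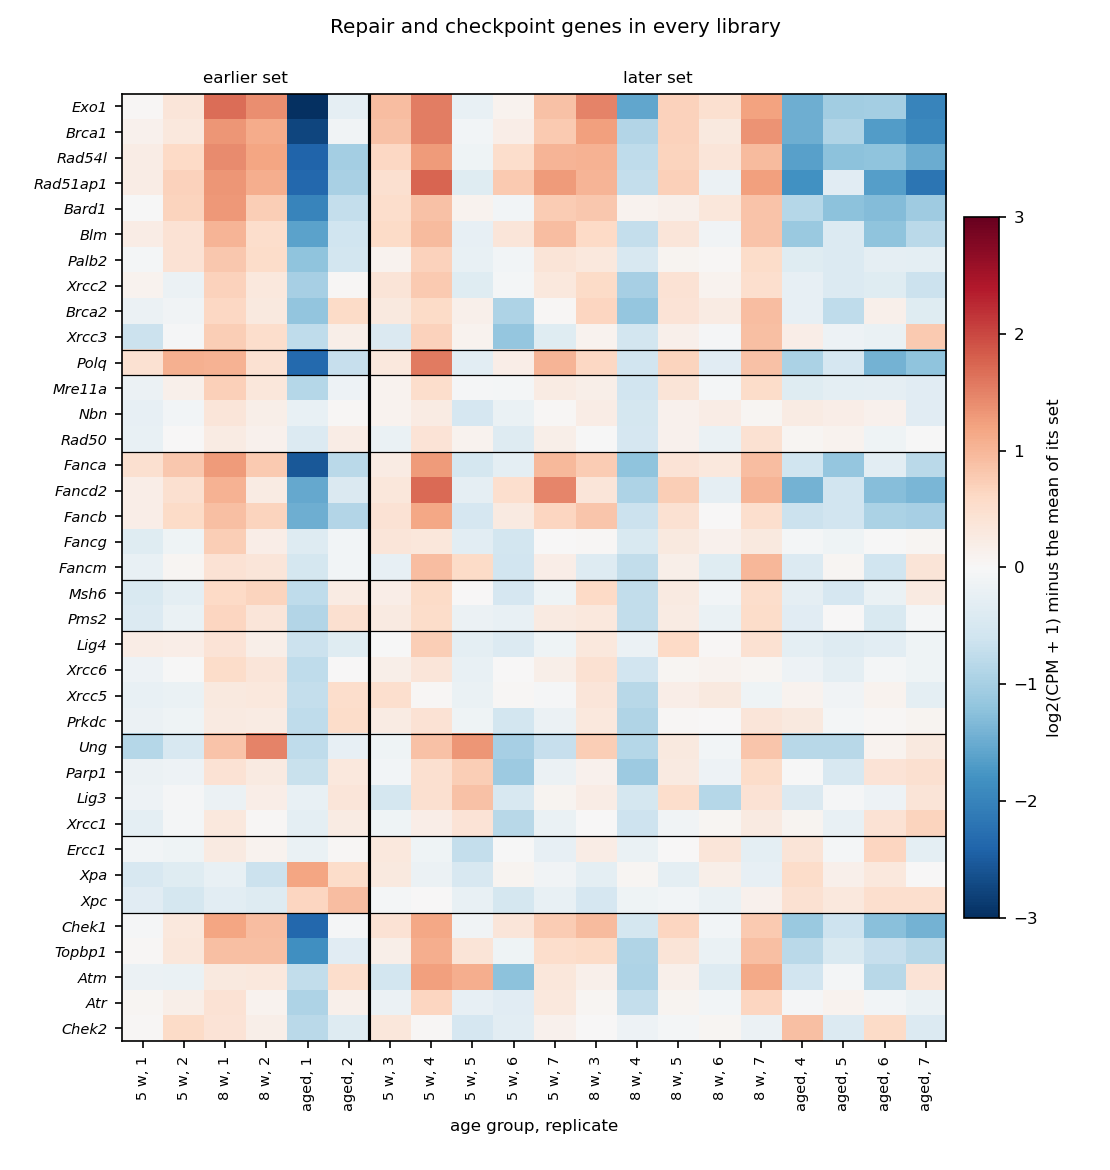
Each member (rows, by role) in each library (columns, by set and then age and replicate number), as log2(CPM + 1) minus the mean of its set; red is higher and blue lower. The aged columns are mostly blue in the rows from Exo1 to Blm, in Polq, Fancb and Chek1, with aged replicate 2 paler than aged replicate 1, and 8w replicate 4 is blue across most rows.

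The aged libraries were unequal, as was the 8-week group. Among the aged, replicate 2 was the highest for 7 members by a wide margin, and 8w replicate 4 was the lowest 8-week library for Nbn, Xrcc5, Xrcc6 and Prkdc by a wide margin. Without 8w replicate 4, Brca2, Msh6, Xrcc2 and Xrcc6 were also called lower against 8 weeks, which gave 19 lower members. Leaving out any other library gave 12 to 15 lower members against 8 weeks. Over all genes, leaving out each library in turn gave 1309 to 2617 genes called in either direction against 8 weeks.

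Within the sets, each with its own fit, all 13 genes lower in both comparisons had negative log2 fold changes in each set. Against 8 weeks these lay between -3.27 and -1.56 in the earlier set and between -2.02 and -0.43 in the later set. Against 5 weeks they lay between -2.32 and -1.08 in the earlier set and between -2.28 and -0.51 in the later set. The 13 were chosen by the fit over both sets of these same libraries, so their signs give no independent support. Of all 37 members, 34 were below 0 in the earlier set and 27 in the later set against 8 weeks, with medians of -0.89 and -0.30. Against 5 weeks 22 and 28 were below 0, with medians of -0.29 and -0.33. The share of all genes below 0 within each set is not given. In the later set alone 4 members, Brca1, Bard1, Rad54l and Chek1, were called lower against 8 weeks and none higher, beside 1.03% and 0.399% of all genes. Against 5 weeks 9 were lower and 1, Xpc, higher there, beside 2.21% and 1.88%. In the earlier set alone 15 were called lower and 2 higher against 8 weeks, beside 13.2% and 15.0% of all genes. These 15 include Ung, which was not called over both sets, and not Lig4. Against 5 weeks the earlier set gave 6 lower and 2 higher, beside 8.55% and 11.9%. Thus 8 of 37 members were called there in either direction, and 20.4% of all genes. The difference between the sets itself was called for no member, in a limma fit with a term for it that called 3 genes in all against 8 weeks and 0 against 5 weeks; the lowest adjusted p of a member was 0.228, and 7 of 111 member tests, over the 3 comparisons of ages, had an unadjusted p under 0.05. When columns were attached by file in place of header, 3 members were called lower and 1 higher against 8 weeks, beside 2.0% and 2.42% of all genes, and 10 and 2 against 5 weeks, beside 5.68% and 10.1%.

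**Figure D4:**
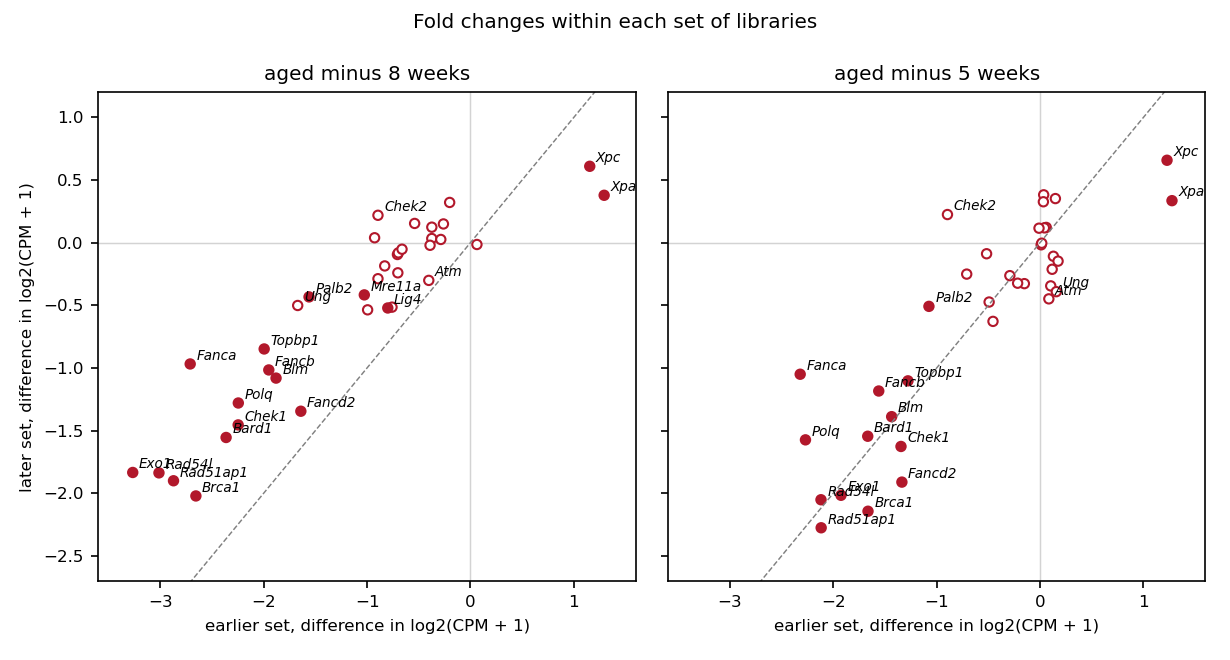
Log2 fold changes of the 37 members within the earlier set (horizontal axis) and within the later set (vertical axis), aged minus 8 weeks at left and aged minus 5 weeks at right; filled points were called in the fit over both sets, and the dashed line marks equal values. The 13 genes lower in both comparisons lie in the lower left of each panel, and Xpc and Xpa in the upper right. These genes were chosen by the fit over both sets, which holds the same libraries.

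Genes of dividing cells moved with the lower members. A list of 29 listed cell division genes, which holds no member, was called lower for all 29 in both comparisons, with a median log2 fold change of -2.80 against 8 weeks and -3.39 against 5 weeks. Ube2c, a ubiquitin-conjugating enzyme of mitosis, had the largest difference of the list against 8 weeks, -3.48 ± 0.36 (adjusted p = 6.77e-05), and Mki67, a marker of cycling cells, differed by -3.00. The mean log2(CPM + 1) of the list lay between 4.62 and 7.44 at 5 weeks, between 4.38 and 7.11 at 8 weeks, and between 1.68 and 4.75 in aged uteri, where aged replicate 2 again had the highest value. Of 29 DNA replication genes, 25 were lower in each comparison, with medians of -1.49 and -1.26. Rrm2, a subunit that makes nucleotides for replication, differed by -3.17 against 8 weeks. Both lists were chosen with earlier results of these data known, so their counts give no independent support.

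Within age groups and sets, a slope was fitted of each gene on the mean of the cell division list, in log2 units per log2 unit, over 12762 genes outside that list. It was positive for 33 of the 37 members and called as positive for 4, while 49.4% of all genes had a positive slope and 0.87% were called so. Without the set term 23 members were called, beside 11.3% of all genes, and with the mean of the DNA replication list in place of the cell division list 24 were, beside 5.87%. The 4 were Rad51ap1 at 0.87 ± 0.15 (SE, adjusted p = 0.00339), Polq at 0.74 ± 0.13 (adjusted p = 0.00406), Fancd2 at 0.75 ± 0.14 (adjusted p = 0.00585) and Chek1 at 0.66 ± 0.15 (adjusted p = 0.0324). For 17 members, all with a positive slope, the unadjusted p was under 0.05 in limma, and 7.62% of all genes had a positive slope with such a p. Bard1 and Rad54l had slopes of 0.31 ± 0.13 and 0.48 ± 0.16 that were not called. Xpc and Xpa had slopes of 0.02 ± 0.09 and -0.06 ± 0.12.

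With the list as a covariate beside age and set, no gene of the 12791 was called in either comparison. The lowest adjusted p was 0.748 against 8 weeks and 0.613 against 5 weeks, and the median standard error was 1.96 and 2.27 times that of the fit without it. In that fit Xpc differed by 0.85 ± 0.28 against 8 weeks and Brca1 by -0.20 ± 0.62, neither of them called. The mean of the list hardly overlapped between ages. It was 1.68 to 4.75 in aged uteri, 4.62 to 7.44 at 5 weeks and 4.38 to 7.11 at 8 weeks. This fit therefore cannot tell age and the mean of the list apart, and no conclusion is drawn from it. The part of dividing cells in these differences was not tested.

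**Figure D5:**
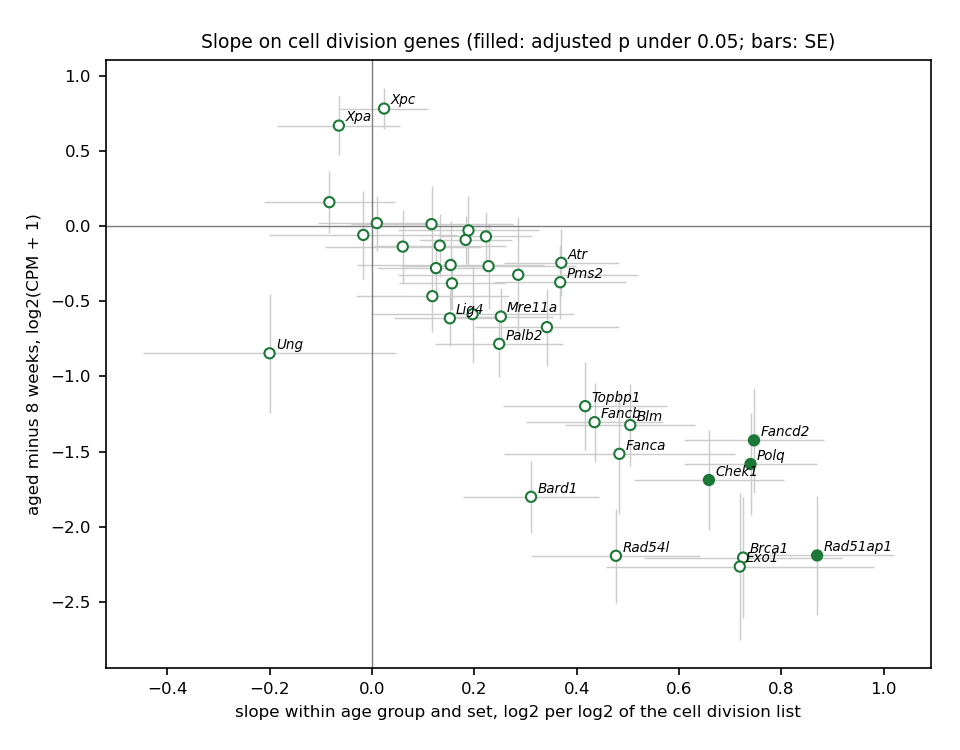
Slope of each member on the mean of the cell division list within age groups and sets (horizontal axis, log2 per log2) against its difference between aged and 8-week uteri (vertical axis, log2(CPM + 1)), with standard errors; filled points have a called slope in the fit with the set term. The 4 called genes lie at slopes of 0.66 to 0.87 and at differences of -2.19 to -1.43, while Xpc and Xpa lie near a slope of 0.

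The stretch before the start site was examined for letters that known regulators of cell cycle genes bind, in windows of 250 bases upstream of the RefSeq start (GRCm38.p6) that were at hand for 30 of the 37 genes and for 10017 listed genes. The letters searched on both strands were TTTCGCGC, TTTGGCGC, TTTCCCGC or TTTGCCGC for E2F, TTTGAA or TTCGAA for the CHR element, and CCAAT, and none of these strings contains another. E2F letters were in 2 of 13 windows of genes lower against 8 weeks (15.4%), in 4 of 16 windows of genes not called (25.0%) and in 3.45% of all windows. CHR letters were in 2 of the 13, in 1 of the 16 and in 12.2% of all windows. CCAAT was in 7 of the 13, in 8 of the 16 and in 36.4% of all windows. A match describes the letters only. Bard1 and Topbp1 are shown because they are the lower members that hold E2F letters, chosen after their values were seen, and Fanca because it is the Fanconi gene with the largest difference and a window. Exo1 has no window at hand, and that of Chek1 lies inside the GENCODE gene and is not shown. Only bases before the start of the GENCODE gene are printed, with motif letters in capitals: in Bard1 (chr1:71103147-71103222, minus strand) a CHR and then an E2F match, in Topbp1 (chr9:103305077-103305214, plus strand) an E2F match read on the other strand, and in Fanca (chr8:123318577-123318826, minus strand) 2 CCAAT matches.
Bard1: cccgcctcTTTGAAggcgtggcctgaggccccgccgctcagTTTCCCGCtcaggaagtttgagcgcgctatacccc
Topbp1: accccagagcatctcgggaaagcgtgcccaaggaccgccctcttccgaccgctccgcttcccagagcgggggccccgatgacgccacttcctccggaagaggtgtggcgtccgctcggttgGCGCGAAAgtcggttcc
Fanca: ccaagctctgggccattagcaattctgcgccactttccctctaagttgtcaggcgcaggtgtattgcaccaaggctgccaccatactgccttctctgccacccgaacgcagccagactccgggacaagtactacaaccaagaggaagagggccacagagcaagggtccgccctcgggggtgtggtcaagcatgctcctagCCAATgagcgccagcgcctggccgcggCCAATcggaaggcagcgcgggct

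Of 133 further repair genes outside the 37, 25 were called lower and 5 higher against 8 weeks, and 24 and 10 against 5 weeks. Over all genes, 8.53% were called lower and 8.64% higher against 8 weeks, and 9.41% and 12.7% against 5 weeks. In the homologous recombination list 14 of 30 were lower against 8 weeks and 11 of 30 against 5 weeks. Fignl1, an ATPase of recombination, differed by -2.39 ± 0.39 (SE, adjusted p = 0.000579) against 8 weeks. In the Fanconi list 2 of 11 were lower in each comparison. Ube2t, the ubiquitin-conjugating enzyme of Fancd2, differed by -1.49, and Usp1, the enzyme that removes that ubiquitin, by -0.84 against 8 weeks.

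Of 23 further checkpoint genes, 4 were lower and 0 higher against 8 weeks, and 3 lower against 5 weeks. Clspn, the adaptor between Atr and Chek1, differed by -2.43 ± 0.46 (adjusted p = 0.00171), and H2ax, the histone marked at breaks, by -1.59 ± 0.26 (adjusted p = 0.000579). Translesion synthesis had 3 lower and 1 higher of 13 against 8 weeks, with Rad18, a ligase that tags the replication clamp, at -1.29 and Poli, a polymerase that bypasses lesions, at 0.64. Base excision repair had 2 lower and 2 higher of 20 against 8 weeks, near the 8.53% and 8.64% of all genes. The lower ones, Lig1 at -1.13 and Fen1 at -1.11, act at replication forks too. The higher ones, Nthl1 at 0.74 and Neil1 at 0.42, remove oxidised bases. Neil1 was not called against 5 weeks, at 0.37 ± 0.14 (limma, adjusted p = 0.0642). Fen1 shares 84.2% of its exon length with other genes and is uncertain.

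The remaining lists held few calls. In nucleotide excision repair none of 21 further genes was called against 8 weeks. Against 5 weeks 3 were higher and 1 lower, beside 12.7% and 9.41% of all genes. Among the higher ones was Ddb2, which with Xpc recognises ultraviolet damage, at 0.82 ± 0.20 (limma, adjusted p = 0.00662). Ddb2 shares 23.8% of its exon length with Acp2. Non-homologous end joining had 1 of 7 higher in each comparison, the Ku partner Paxx, at 0.49 against 8 weeks. Mismatch repair had 0 of 5 and direct reversal 0 of 3 called in both comparisons.

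Targets of p53, the transcription factor that damage signals activate, were counted from a list of 26. Against 8 weeks 3 were higher and 2 lower, and likewise against 5 weeks, with medians of 0.10 and 0.06. Over all genes, 8.64% were higher and 8.53% lower against 8 weeks, and 12.7% and 9.41% against 5 weeks. Of the list, Ephx1, an epoxide hydrolase, was higher by 1.43 ± 0.19 against 8 weeks (limma, adjusted p = 0.000177). Bbc3, which promotes cell death, was higher by 0.92 and Rrm2b, a subunit that supplies nucleotides for repair, by 0.68. Gtse1, a mitotic gene that also restrains p53, differed by -2.24 and Apaf1, which starts the caspase cascade, by -0.50. Cdkn1a, the cell cycle inhibitor best known as a p53 target, was not called, at 0.19 ± 0.19 against 8 weeks and 0.40 ± 0.19 against 5 weeks.

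Marker lists of other cells in the uterus moved less than the cell division list, apart from antibody genes. Of 7 listed B and plasma cell markers 4 were higher in aged uteri in each comparison, led by the antibody chain Igkc at 4.67 ± 0.58 against 8 weeks (limma, adjusted p = 0.000129). Cd79b at 0.47, Xbp1 at -0.32 and Sdc1 at -0.46 were not called against 8 weeks. The summed level of the 7 lay between 454 and 876 CPM at 5 weeks and between 587 and 958 CPM at 8 weeks. In aged uteri it lay between 1014 and 7588 CPM. Cd79a and Ms4a1 were not among the listed genes. Against 8 weeks, 1 of 12 epithelial, 1 of 10 endothelial, 1 of 10 macrophage and 0 of 10 smooth muscle markers were higher, and 1 of 10 stromal markers was lower. These were Cldn4 at 1.13, Cldn5 at 1.62, Csf1r at 0.95 and Col3a1 at -1.15, and among the uterine markers Foxa2, a factor of uterine glands, was higher by 1.54. The summed epithelial level was 2303 to 9541 CPM at 5 weeks, 2015 to 9871 CPM at 8 weeks and 1757 to 5934 CPM in aged uteri, and the summed stromal level 8440 to 19078 CPM, 8245 to 12104 CPM and 5204 to 11512 CPM at the same ages. Of 5 listed T and NK cell markers 0 were called against 8 weeks. More of these markers were called against 5 weeks, as were more of all genes. Over all genes 12.7% were higher and 9.41% lower against 5 weeks, beside 8.64% and 8.53% against 8 weeks. Higher were 3 of 10 macrophage markers (Csf1r, Cd14 and C1qa), 2 of 10 of smooth muscle (Smtn and Lmod1), 1 epithelial, 1 endothelial and 1 T and NK cell marker (Cd2), and lower were 3 of 10 stromal markers, the collagens Col1a1, Col1a2 and Col3a1, and 1 of 12 epithelial markers, Cldn7. In the T and NK cell list, Nkg7 (-0.52), Gzmb (-2.05), Prf1 (-1.11) and Klrb1c (-0.32) went the other way from Cd2 against 5 weeks and were not called. Of the 12 genes of that list, 7 were not among the genes listed. The part of the cells of all these marker lists in the levels of repair genes was not tested.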

How the data were processed

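RNA of whole mouse uteri was sequenced by the submitters. NEBNext Ultra libraries were read on 2 Illumina instruments, per the labels' protocols, with no assignment of libraries to instruments. Per the submitters' processing notes, the tools were fastp, STAR, featureCounts and edgeR and the build GRCm38, without versions or roles. The authors deposited a CPM value per gene, scaled to a sum of 1e+06 in each library over the listed genes. Of 21 files, 20 held values and 1 held symbols in place of numbers.

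The members and the gene lists were chosen with earlier results of these data known. CPM values were taken as log2(CPM + 1), with a pseudocount of 1 CPM and no filter. They were fitted in limma 3.58.1 (R 4.3.3, trend on the mean level) over all 20 libraries, with age group and set as terms. P-values were adjusted by Benjamini and Hochberg over all 12791 genes, called under 0.05. Nothing says that libraries are separate animals, so p-values measure the spread between these samples. The limma script was checked on simulated data. Of the gene identifiers, 12767 were found in the GENCODE annotation of GRCm38. Within each role the text gives levels for up to 3 called members with the largest change, or for the member with the smallest change where none was called, and other members by fold change. Further repair genes are named for the largest changes per list; Nthl1, Neil1, Ddb2, Mki67 and the p53 targets other than Gtse1 were named after their values were seen. Single genes of these lists that are not named are not reported here. Alternatives were another pseudocount, a filter at a mean of 5 CPM, other scalings, covariates and subsets of libraries.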

Additional observations from a re-analysis of the deposited data

Results flagged for a closer look

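In 12 of 111 tests, each of 1 member in 1 age group, the highest or lowest library stood apart from the rest by Dixon's gap test. For independent tests of normally spread values, chance would flag about 1 group in 20. Tests of different members share the same libraries and are not independent. No share over all genes is given, so the count does not tell whether members differ from other genes.

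Aged replicate 2, of the earlier set, was the high library for 7 members. It had 20.5 CPM of Brca1, against 1.49 to 4.10 CPM in the other aged libraries, and 13.0 CPM of Exo1, against 0.86 to 2.63 CPM. Rad54l stood at 8.76 CPM there, against 2.03 to 3.02 CPM, and Palb2 at 5.71 CPM, against 3.21 to 3.83 CPM. Xrcc2 had 10.4 CPM, against 4.30 to 5.99 CPM, Mre11a 34.7 CPM, against 20.6 to 22.4 CPM, and Topbp1 82.2 CPM, against 26.0 to 33.9 CPM. The same library had the highest cell division mean of the aged group, 4.75, against 1.68 to 3.64 in the others.

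At 8 weeks, replicate 4 of the later set was the low library for 4 members. Nbn stood at 27.8 CPM there, against 40.5 to 47.3 CPM in the other 8-week libraries, and Xrcc5 at 26.9 CPM, against 44.4 to 62.9 CPM. Xrcc6 had 37.4 CPM, against 58.8 to 78.2 CPM, and Prkdc 9.92 CPM, against 19.6 to 25.3 CPM. Its DNA replication mean was 3.97, against 4.81 to 6.52 in the other 8-week libraries, and its cell division mean of 4.89 lay within their range of 4.38 to 7.11. In the aged group, replicate 1 was low for Xrcc6, with 29.4 CPM, against 45.7 to 54.3 CPM in the other aged libraries.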

How the results depend on the processing

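A pseudocount of 0.25 CPM or a filter at a mean of 5 CPM kept all 17 and 15 member calls. Counts below are against 8 weeks and then 5 weeks. Without the set term 6 and 9 members were lower and 1 and 1 higher, of 969 and 1380 genes called. Quantile normalization and median centring each left 1 higher member in both comparisons (Xpa lost). Each gave 16 lower members in both, with Xrcc2 gained in both and Lig4 and Mre11a against 5 weeks. Over all genes, lower calls went from 1091 to 1335 and 1362 against 8 weeks, and from 1203 to 1497 and 1645 against 5 weeks. Higher calls over all genes went from 1105 to 1166 and 1197, and from 1622 to 1462 and 1526. Only the groups compared left 1 higher member against 5 weeks. The later set alone called 183 and 523 genes, with 4 members lower and 0 higher against 8 weeks and 1 higher against 5 weeks; the earlier set alone called 3613 genes against 8 weeks and 6 lower members against 5 weeks. Columns attached by file gave 565 genes, 3 members lower and 1 higher against 8 weeks. The cause of these shifts was not tested. Leaving out the 2 columns whose age is in doubt, chosen after seeing the data, kept 15 members in each comparison.

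Leaving out each library in turn gave 1309 to 2617 and 1982 to 3294 genes called, 12 to 19 and 12 to 15 lower members and 1 to 2 higher members in both, 0 to 0 genes between 8 and 5 weeks, and 3 to 6 called slopes. The lowest count against 8 weeks was 1309 without aged replicate 1, then 1358 without 8w replicate 2 and 1454 without 8w replicate 1. The slope count was 23 with no set term and 24 on the DNA replication list.

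With the cell division covariate 0 genes, 0 lower and 0 higher members were called in both comparisons. Below 0 were 14 of 37 members against 8 weeks and 3 against 5 weeks. The medians of the members were 0.07 and 0.38, beside 0.02 and 0.06 for all genes. The share of all genes below 0 in this fit is not given. Age and the mean of the list cannot be told apart in it, so a changed sign is not read as a reversal. Values below are given with their SE, and none was called. Among members called without the covariate, signs turned against 8 weeks for Rad51ap1 (0.21 ± 0.48), Blm (0.071 ± 0.41) and Mre11a (0.094 ± 0.33). They also turned for Polq (0.46 ± 0.42), Fancd2 (0.64 ± 0.44) and Chek1 (0.13 ± 0.47). Against 5 weeks, among called members, signs turned for Brca1 (0.41 ± 0.72), Palb2 (0.13 ± 0.46) and Rad51ap1 (0.65 ± 0.55). They turned there also for Blm (0.27 ± 0.47), Exo1 (0.38 ± 0.97), Polq (0.67 ± 0.48) and Fanca (0.15 ± 0.84). The others were Fancb (0.14 ± 0.49), Fancd2 (0.74 ± 0.51), Chek1 (0.64 ± 0.54) and Topbp1 (0.21 ± 0.59).

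Deviations of same-numbered libraries correlated at -0.51 to 0.28, with 6 of 13 pairs of the later set over 0.1. In the earlier set, where 2 libraries mirror each other around their mean, the pairs give 3 distinct values, 2 of them over 0.1. Since not every pair passed, the numbers were not taken to pair the samples. The replicate block gave 1637 and 2413 genes called, 13 and 12 lower members and 2 higher in both. Lig4, Mre11a and, against 5 weeks, Palb2 lost their calls.

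Count tests (edgeR, DESeq2) and TMM scaling were not run, since the deposited values are CPM. Genes with under 10 reads in any library are not listed, which limits what can be said of Rad54b, Fanci and Neil3, and 8 members share over 5% of exon length with other genes.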
